A study of Prunus persica with 9 samples.

Results

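miR535a (ENSRNA049997194) and miR535b (ENSRNA049997189) are the 2 peach pre_miRNA genes of the miR535 family in the list of regulated miRNAs that the study drew up, out of 210 pre_miRNA genes in the deposited table. They were chosen for their fall in normalized counts soon after treatment with PpPep2, so their distance from the control is described here without a test. PpPep2 is a peach plant elicitor peptide, a small peptide that plants perceive as a signal of damage. The leaves came from juvenile *Prunus persica* var. Big Top plants produced in vitro, and each library holds leaf blades pooled from several plants, without the central vein. Small RNA was sequenced in 3 libraries of control leaves (t0), 3 libraries taken 1 h after spraying with 1 μM PpPep2 and 3 libraries taken 24 h after it. The sample labels call the control mock and the study calls it untreated. All control libraries were from t0, so an effect of PpPep2 and an effect of time or spraying cannot be told apart. The table holds miRNA genes only, and the label leaf was not checked against marker genes.

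MiRNAs are cut from stem-loop precursors and guide ARGONAUTE proteins to mRNAs with a matching site, which are cleaved or translated less. miR535 is a plant miRNA related in sequence to miR156, and in rice it targets mRNAs of SPL transcription factors, which promote the change from juvenile to adult growth and are the well-known targets of miR156. The mature sequences are shown because the copies are so alike that the counts of each depend on how reads were told apart. The bases of the seed, positions 2 to 8 counted from the 5′ end, are in capitals.
miR535a: uGACAACGagagagagcacgc
miR535b: uGACGACGagagagagcacgc
miR156g and miR156h: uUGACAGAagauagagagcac

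The mature miR535a and miR535b have 21 nt each and match at 20 of 21 bases. The difference is A5G, where miR535a is given first and positions count from 1 at the 5′ end. It lies inside the seed, so that the copies do not share a seed, and none of the other sequences among the 39 listed for the 33 genes of the study has the seed of either copy. The 16 bases that follow the difference are identical. A run of 9 bases, agagagcac, at positions 11 to 19 of both copies also occurs at positions 13 to 21 of miR156g and miR156h, which share a mature sequence. A read that covers position 5 without error can be assigned to its copy, while shorter or mismatched reads can be counted for either gene. How much such reads contributed was not tested.

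The values are normalized counts, which the authors made by dividing the reads of each gene by 1 factor per library. At t0 the normalized count of miR535a was 216 in replicate 1, 148 in replicate 2 and 137 in replicate 3. At 1 h it was 26.8, 46.7 and 37.7, and at 24 h it was 49.2, 49.7 and 31.5. In bulk leaf tissue, fewer cells of a type and less RNA per cell cannot be told apart. All PpPep2 libraries lay below all t0 libraries, and the lowest t0 library was 2.75 times the highest PpPep2 library. The mean level fell from 167 ± 43.2 at t0 to 37.1 ± 9.99 at 1 h, and it was 43.4 ± 10.4 at 24 h (SD, n = 3 each). The level at 1 h was thus 22.2% of that at t0, and at 24 h it was 26.0%.

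For miR535b the normalized count at t0 was 603 in replicate 1, 447 in replicate 2 and 348 in replicate 3. At 1 h the replicates had 115, 224 and 195, and at 24 h they had 235, 188 and 174. Here too the PpPep2 libraries were all under the t0 libraries, with a narrower gap, the lowest t0 library being 1.48 times the highest PpPep2 library. The t0 libraries averaged 466 ± 129, those of 1 h 178 ± 56.3 and those of 24 h 199 ± 31.8 (SD, n = 3 each), so that 38.2% of the t0 level was left at 1 h and 42.7% at 24 h. In both copies replicate 1 was the highest of t0 and the lowest of 1 h.

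**Figure D1:**
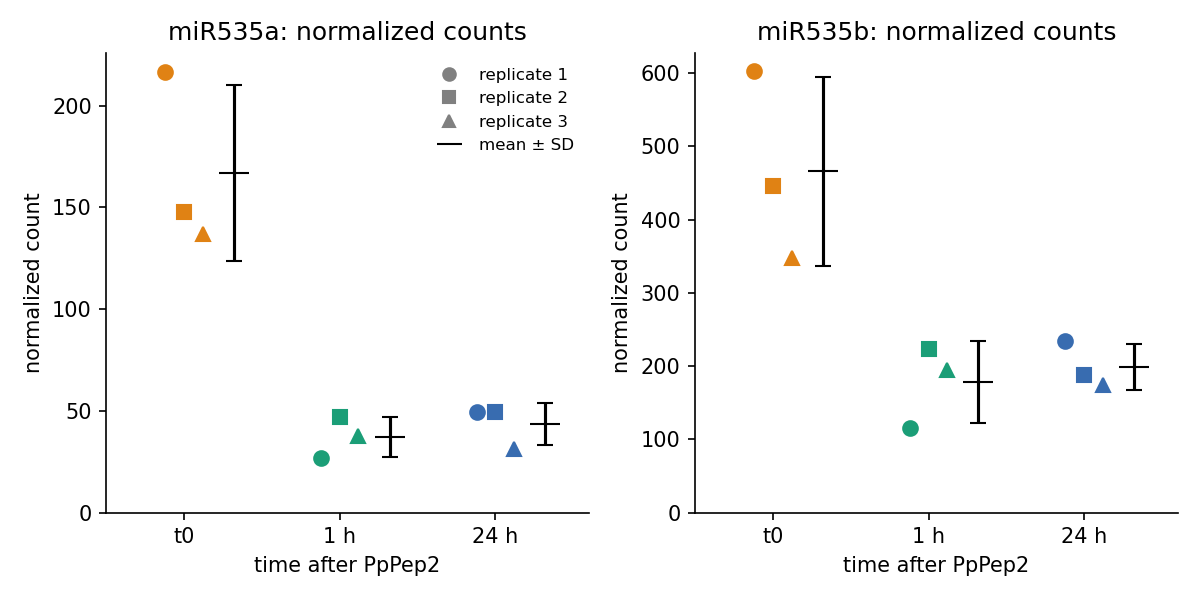
Normalized counts of miR535a (left) and miR535b (right) in each library at t0, 1 h and 24 h after PpPep2, with both axes starting at 0; symbols mark the replicate and black bars the mean ± SD (n = 3). All 6 PpPep2 libraries lie below the 3 t0 libraries, at 49.7 or less against 137 or more for miR535a and at 235 or less against 348 or more for miR535b.

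Libraries at 1 h that lie entirely below t0 were found for 12.6% of the 135 tested genes, whose mean over all libraries was 5 normalized counts or more, and libraries at 24 h that do so for 21.5%. For 8.89% all 6 PpPep2 libraries were below t0. Both copies belong to each of these sets, which their choice made likely. On the log2(normalized count + 1) scale, fitted with limma to all 9 libraries, the difference of miR535a from t0 was -2.15 at 1 h and -1.92 at 24 h (standard error 0.30 for both). For miR535b the log2 difference was -1.40 at 1 h and -1.20 at 24 h (standard error 0.30 for both). Among the 135 genes, miR535a had the 2nd lowest difference at 1 h and the 10th lowest at 24 h, and miR535b the 10th and the 23rd lowest. With the libraries scaled to the same upper quartile, the differences of miR535a were -1.72 and -1.52 and those of miR535b -0.97 and -0.80. The median difference of all genes moved with this scaling, to 0.39 at 1 h and 0.37 at 24 h, from -0.033 and -0.013 with the authors' scaling. Relative to the median gene, miR535a was at -2.11 at 1 h with either scaling, and miR535b at -1.37 and -1.36.

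Whether the low level was held was asked by comparing 24 h with 1 h. The choice of the genes used this comparison least, but it shares the 1 h libraries, where the genes were chosen to be low. The study's values at 24 h were also known at the choice, so the test is not independent of it. The difference was 0.23 on the log2 scale for miR535a (95% interval -0.45 to 0.91, adjusted p = 0.709, limma with Benjamini-Hochberg adjustment over 135 genes). For miR535b it was 0.20 (95% interval -0.49 to 0.89, adjusted p = 0.73 in the same limma test). Both intervals reach from a further fall to a partial return, equal to 24 h levels between 0.733 and 1.87 times those of 1 h for miR535a and between 0.712 and 1.86 times for miR535b. The libraries of 1 h and 24 h overlapped for both copies. By this test 0 of 135 genes passed in either direction (0% called), and 18 had an unadjusted p under 0.05. The number passing was 1 without replicate 1 of either time point and 2 without replicate 3 of 24 h. Without replicate 1 of 1 h, the lowest library of both copies, the difference was 0.019 for miR535a and -0.084 for miR535b.

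The time course was set beside those of the other genes with a mean log2 value at 24 h at least 1 below t0, a limit chosen after the values were seen. There were 25 such genes, of which 23 were not of the pair. These 23 were picked for a low level at 24 h and the pair for a low level at 1 h, so the choice itself favours a lower level at 24 h than at 1 h in the former. Among the 23, the mean at 24 h was below that at 1 h for 21, with a median difference between 24 h and 1 h of -0.93. The share of the 24 h fall already present at 1 h had a median of 50.5% over these 23 genes, with a range of -0.27% to 265%, and it was 112% for miR535a and 117% for miR535b. ENSRNA049996084 at 88.3% and miR166e at 86.4% lay near the pair, with differences between 24 h and 1 h of -0.15 and -0.23. The 2 other genes that were higher at 24 h than at 1 h are ENSRNA049996337 and ENSRNA050003589, which carry no name in the study's list. The place of the pair among these genes is a description.

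**Figure D2:**
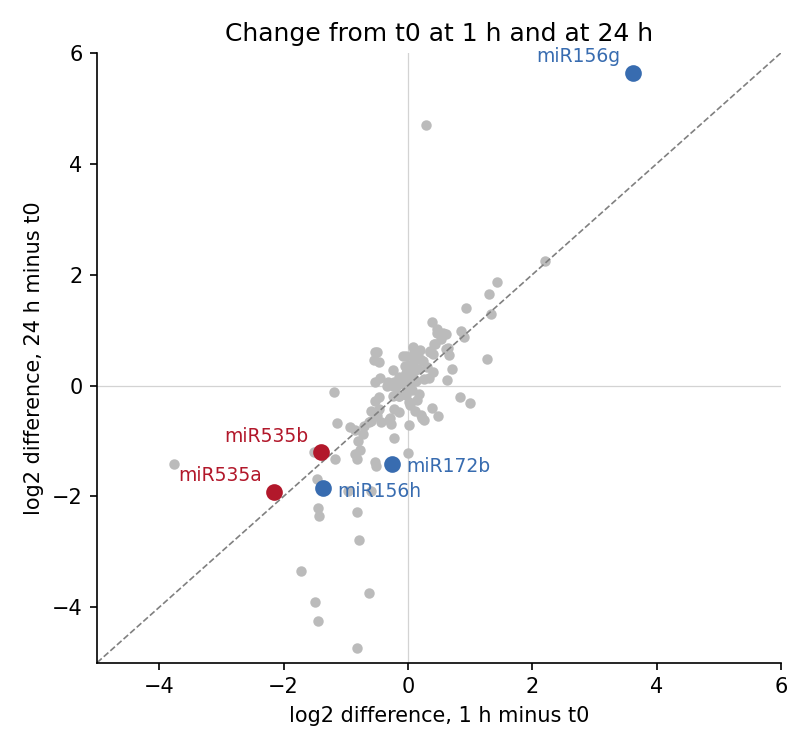
Change from t0 at 1 h (x axis) and at 24 h (y axis) as log2 difference for the 135 genes tested, each a point, with the pair in red and the SPL-related genes miR156g, miR156h and miR172b in blue; the dashed line marks equal change. miR535a (-2.15, -1.92) and miR535b (-1.40, -1.20) lie just above the line, whereas miR156h (-1.37, -1.86) and miR172b (-0.26, -1.41) lie below it. miR156g lies on the opposite side of t0 (3.62, 5.64).

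In the group means the fall was deeper for miR535a than for miR535b. Of the normalized counts of both genes, miR535a made up 26.4% at t0 in replicate 1 (95% interval 24.0% to 28.9%), 24.9% in replicate 2 (19.2% to 31.3%) and 28.2% in replicate 3 (25.4% to 31.1%). At 1 h its share was 18.9% (13.4% to 25.5%), 17.3% (12.3% to 23.3%) and 16.2% (10.6% to 23.3%). At 24 h it was 17.3% (12.02% to 23.8%), 20.9% (13.1% to 30.7%) and 15.3% (10.2% to 21.8%). The t0 libraries were all above the PpPep2 libraries, although the interval of t0 replicate 2 overlaps those of all the PpPep2 libraries. The intervals of 1 h replicate 1 and of 24 h replicate 2 overlap those of all the t0 libraries. The intervals are exact binomial (Clopper-Pearson) on the recovered reads and take in only the error of counting. They treat reads as independent, which PCR copies of 1 molecule are not, so they can be too narrow. This share does not depend on how the libraries were scaled. Averaged over the libraries of a condition, miR535a had 26.5% ± 1.66 of the pair before treatment, 17.4% ± 1.34 at 1 h and 17.9% ± 2.81 at 24 h (SD, n = 3 each).

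**Figure D3:**
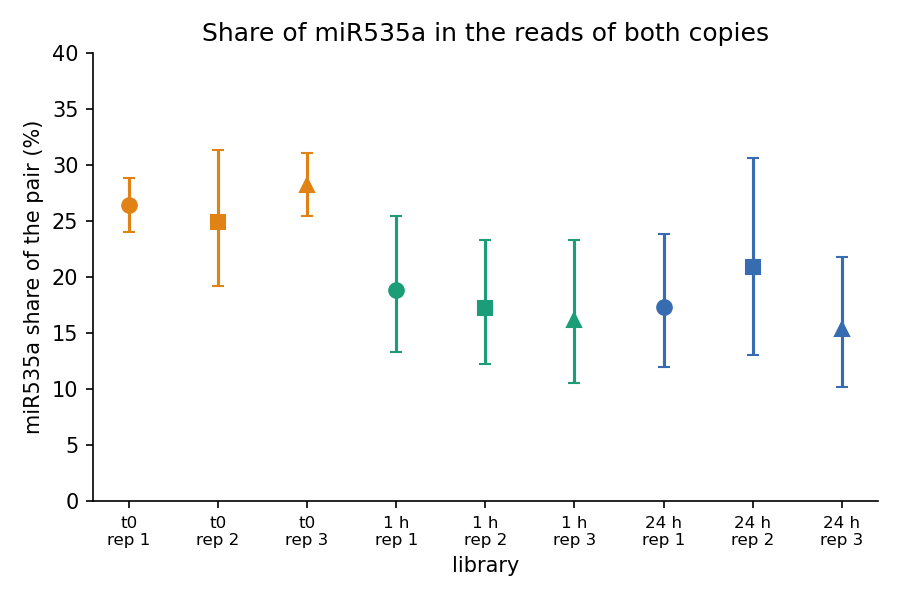
Share of miR535a in the reads of both copies (percent, y axis from 0) in each library, with exact binomial 95% intervals for counting error; colours mark t0, 1 h and 24 h. The 3 t0 libraries are at 24.9% to 28.2% and the 6 PpPep2 libraries at 15.3% to 20.9%.

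As a log2 ratio of miR535a to miR535b, the mean was -1.47 before treatment, -2.21 after 1 h and -2.19 after 24 h. It was thus 0.75 lower at 1 h than at t0 and 0.72 lower at 24 h, given without a test because the copies were chosen on these contrasts. Between 1 h and 24 h the ratio differed by 0.028, less than the spread between replicates (two-sided exact permutation test over 20 splits, p = 0.9, where the smallest possible is 0.1). Reads set a limit on the ratio, since miR535a rested on 19 to 348 reads per library and miR535b on 72 to 970. The counting error of the log2 ratio ran from 0.09 to 0.37 per library, with a root mean square of 0.27, and the standard deviation of the ratio within conditions was 0.19. At this depth, differences in the ratio between replicates could not be told from counting error.

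The sum of both copies is not changed by reads assigned to the wrong copy. It was 820, 594 and 485 normalized counts at t0, 142, 271 and 233 at 1 h and 284, 238 and 205 at 24 h. Its log2 difference from t0 was -1.57 at 1 h and -1.36 at 24 h, and from 1 h to 24 h it was 0.21 (adjusted p = 0.73 by limma and Benjamini-Hochberg adjustment). The pair took between 0.181% and 0.274% of all normalized counts of a library at t0 and between 0.0517% and 0.0791% after PpPep2.

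The co-variation of the copies was examined within conditions, because t0 and PpPep2 libraries form separate clusters and a correlation over all of them would mostly repeat the fall. In 8 of 9 libraries both copies lay on the same side of their condition means, the exception being replicate 2 of 24 h. On the log2 scale miR535a and miR535b deviated by 0.40 and 0.41 in t0 replicate 1, by -0.14 and -0.025 in replicate 2 and by -0.26 and -0.38 in replicate 3. At 1 h they deviated by -0.42 and -0.57, by 0.36 and 0.38 and by 0.058 and 0.18. At 24 h the values were 0.21 and 0.25, then 0.22 and -0.067, then -0.42 and -0.18. The largest deviations of miR535b went with deviations of miR535a of the same sign. The deviations from the condition means had a Pearson r of 0.880 over 9 libraries (two-sided exact permutation within conditions, p = 0.0185 over 216 arrangements, adjusted p = 0.0185) and a Spearman rho of 0.850 (permutation p = 0.0231, adjusted p = 0.0463). The adjusted values are by Benjamini-Hochberg over the 2 sets of libraries examined. Without the libraries with the lowest miR535a deviations, replicate 1 of 1 h and replicate 3 of 24 h, r was 0.856. After scaling to the same total, r was 0.820 (exact permutation p = 0.0231), and with the same upper quartile it was 0.912 (exact permutation p = 0.0139). When 1 library was left out in turn r stayed between 0.829 and 0.951, while the permutation p reached 0.0556 without any 1 of the t0 or 1 h libraries. The copies share the scaling of each library and nearly all of their mature sequence, and the part of either in this co-variation was not tested.

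**Figure D4:**
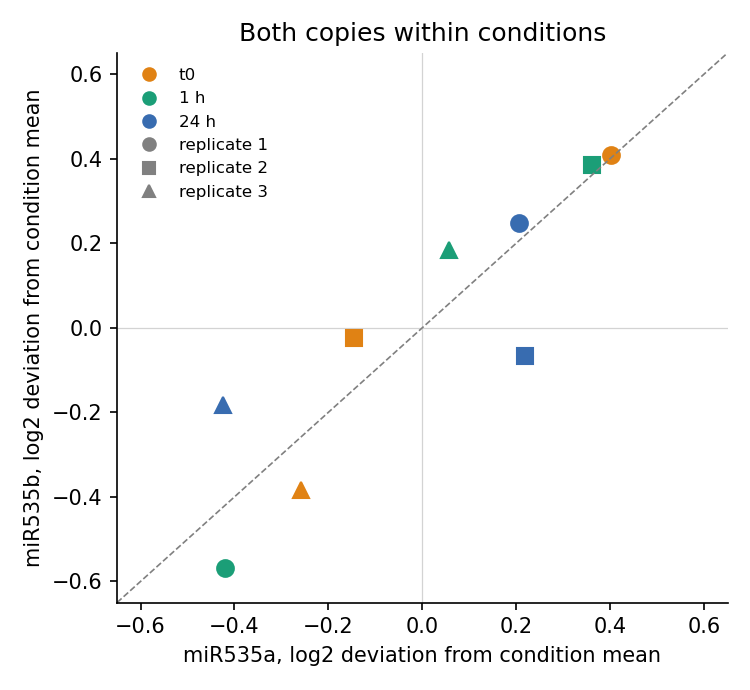
Deviation of each library from the mean of its condition in log2(normalized count + 1), for miR535a (x axis) and miR535b (y axis), with colours for conditions and symbols for replicates; the dashed line marks equal deviations. The other libraries lie in the lower left or upper right, and replicate 2 of 24 h is above the mean for miR535a (0.22) and below it for miR535b (-0.067).

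Within the 6 PpPep2 libraries alone, r between the copies was 0.863 (two-sided exact permutation p = 0.0167 over 720 pairings, adjusted p = 0.0185) and rho was 0.657 (exact permutation p = 0.175, adjusted p = 0.175). Without replicate 1 of 1 h and replicate 3 of 24 h, the libraries farthest from the median of miR535a, r was 0.359, so the relation in these libraries rests on them. Without replicate 1 of 1 h alone r was 0.707 (exact permutation p = 0.2). Without replicate 1 or replicate 3 of 24 h it was 0.829 and 0.904 (exact permutation p = 0.05 and 0.0833). Scaling to the same total gave 0.743 (exact permutation p = 0.110).

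Over all 9 libraries, miR535b was the gene with the profile nearest to that of miR535a among the 134 other genes tested, and miR535a was the nearest to miR535b. Nearness was measured as the root mean square difference between profiles centred on their own means, which was 0.38 on the log2 scale for the pair. The median gene was at 1.09 from miR535a and at 0.83 from miR535b. After the copies themselves, the 5 genes nearest to the mean profile of the pair were at 0.59 to 0.70. Nearest was ENSRNA049996020, which went from 187 normalized counts in the control leaves to 113 after 1 h and 94.7 after 24 h. ENSRNA049996862 followed at 0.62, with 48.9, 20.4 and 28.8 normalized counts. The fifth was miR156h at 0.70, and the other two have no name in the study. These distances include the fall from t0 for which the pair was chosen, which by itself brings the copies near to each other, and they are given without a p.

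Of the SPL-related genes, miR156g and miR156h carry the miR156 sequence shown above, and miR172b belongs to a family that SPL factors activate in *Arabidopsis* and that represses AP2-like flowering repressors. The study listed all of these genes from these same libraries, so their directions are not independent evidence. In the limma test 0 of the 3 passed at 1 h against t0 in either direction, where 0.741% of the 135 genes passed as lower and 0% as higher. That 0.741% is 1 gene, miR535a, which was chosen for its fall at 1 h, so its passing is not evidence on the pair. The study used a different test, DESeq2 on counts, and reported more genes as regulated at 1 h. It proposes a role in the early steps for miR156h, miR167a and 1 or both miR535 copies. In limma at 24 h against t0, 1 of 3 passed as lower, miR156h, and 0 as higher, beside 8.89% and 5.19% of all genes. Both miR535 copies and miR156h itself are counted in the 8.89%. The copies were chosen with their fall from t0 known, so this too is no test of the pair. Between 1 h and 24 h 0 of 3 passed. As counted per gene, the list had no common direction. Its median difference, which is that of miR172b, was -0.26 at 1 h and -1.41 at 24 h, whereas miR156g was at 3.62 and 5.64, the highest of the 135 genes at both times (adjusted p = 0.354 and 0.0643, limma with Benjamini-Hochberg correction). The mature sequence is the same in miR156g and miR156h, so mature reads cannot be assigned to 1 of them. How such reads were divided between these genes was not tested.

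miR156h had 794, 495 and 789 normalized counts at t0, 478, 184 and 203 at 1 h and 157, 230 and 177 at 24 h. Its log2 difference from t0 was -1.37 at 1 h and -1.86 at 24 h (adjusted p = 0.0178 at 24 h, limma with Benjamini-Hochberg adjustment), and from 1 h to 24 h it was -0.49 (adjusted p = 0.549 in the same limma test). In replicate 1 of 1 h miR156h was the highest of its condition, whereas both miR535 copies were the lowest there. miR156g had 2.49, 0 and 1.95 normalized counts at t0, 0, 114 and 164 at 1 h and 328, 23.5 and 159 at 24 h, so that its fitted differences depend on the 1 added before taking logs. For miR172b the counts were 143, 88.2 and 109 at t0, 202, 109 and 36.0 at 1 h and 45.9, 54.9 and 27.7 at 24 h, so that its 1 h libraries lay on both sides of t0.

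The copies were also set beside other pairs of copies in the study's list, by the standard deviation of their log2 ratio within conditions. It was 0.19 for miR535a and miR535b and 0.11 for miR7122a and miR7122b, which differ in sequence. It was 1.04 for miR171a and miR171c and 3.10 for miR156g and miR156h. The copies of the last pairs share a mature sequence, and 1 copy of each was at 0 in at least 1 library. Levels also differed between the pairs, with a mean log2 value at t0 of 7.36 for miR535a, 11.3 for miR7122a and 1.79 for miR171c. The part of counting error in the order of these spreads was not tested. The condition means of the ratio spanned 0.75 for the miR535 pair and 0.36 for the miR7122 pair, with no test of the difference.

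The depth on pre_miRNA genes was between 115519 and 546709 reads per library, with a median of 267132, as read from the step of low values that 1 read is worth. The shallowest library was t0 replicate 2, where miR535a rested on 52 reads and miR535b on 157. In t0 replicate 3, the deepest, they had 280 and 713 reads. Replicates of a condition differed by more than counting noise, the chi-square over genes being 19.6 to 249 times its degrees of freedom, so no library was counted as a repeat of another. The highest values, 249 and 228, were those of 1 h replicate 1 against replicates 2 and 3, which had 19.6 between them. Within t0 and 24 h the values were 26.0 to 90.9. By this measure 1 h replicate 1, the lowest library of both copies, differed most from its replicates over all genes.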

How the data were processed

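According to the study and the submitters' processing notes, reads were trimmed with Trim Galore 0.6.6, mapped to the peach genome with STAR 2.5.3a, quantified per annotated gene with RSEM 1.3.0 and normalized with DESeq2 1.26.0. What the authors deposited is a signal, their normalized counts in rounded form. The header of the file names 9 libraries and an empty cell, so each name was taken for the value 1 cell to its right, and 0 columns were left unmapped. In each library 100% of the values lay within 0.05 of a whole multiple of 1 step, taken as 1 read. Only 64 to 80 low values per library were at hand, fewer than the 100 set for treating values as recovered reads in a count test. The planned count tests were therefore not run, and reads were used only for depth, counting errors, the comparison of replicates with counting noise, and shares with their 95% intervals.

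After adding 1 and taking log2, the 135 genes whose mean reached 5 were fitted in limma 3.58.1 (R 4.3.3) over all libraries, with the trend option and without a block. Adjustment was by Benjamini-Hochberg, with 0.05 as threshold. Remaining steps used scipy 1.17.1, pandas 2.3.3 and numpy 2.4.6 under Python 3.11.15, and matplotlib 3.10.9 for plots. Alternatives were other added values, minimum means, scalings, limma without the trend, fewer libraries, a replicate block, the pair summed and the omission of single libraries. Groups and replicate numbers come from the sample titles, and the p-values measure the spread between these pooled libraries. Names and mature sequences come from the study's supplementary tables. Genes named are the pair, the 5 nearest profiles, the SPL-related list and 3 other pairs of copies, with exceptions said in the text. The members and lists were chosen with earlier results of these data known. Targets and mRNAs were not analysed here.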

Additional observations from a re-analysis of the deposited data

How the results depend on the processing

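No alternative turned the direction of a fall from t0. The differences moved by more than the spread between replicates with the same upper quartile, to -1.72 and -1.52 for miR535a and -0.97 and -0.80 for miR535b at 1 h and 24 h. The summed pair, a different feature in which miR535b has most of the counts, was at -1.57 and -1.36. With 1 library left out, miR535a stayed between -2.33 and -1.94 at 1 h and between -2.05 and -1.71 at 24 h, and miR535b between -1.59 and -1.12 and between -1.39 and -0.996. From 1 h to 24 h the difference ran from 0.019 to 0.44 for miR535a and from -0.084, without replicate 1 of 1 h, to 0.39 for miR535b, with adjusted p of 0.566 or more (limma, Benjamini-Hochberg), and 0 to 2 genes were called. With 1 library left out, the log2 ratio of the copies differed by -0.11 to 0.15 between 1 h and 24 h. In these fits the ratio stayed 0.68 to 0.82 lower than t0 at 1 h and 0.60 to 0.86 lower at 24 h. With 5 added before taking logs, its difference from t0 was -0.65 at 1 h and -0.64 at 24 h. The co-variation had r of 0.829 to 0.951 within conditions and 0.707 to 0.944 in the PpPep2 libraries with 1 library left out, and 0.743 in the latter with the same total. Fewer arrangements are left without a library, and other causes were not tested. Equal replicate numbers gave no clear pairing of the libraries: their deviations correlated between -0.41 and 0.17 across genes, over 0.1 in 3 of 9 pairs. With unequal numbers the range was -0.37 to 0.39, over 0.1 in 4 of 18 pairs. A library was best matched by its own number in 9 of 18 cases. Deviations from means of 3 libraries cannot exclude a pairing. With the replicate block the differences from 1 h to 24 h were 0.23 and 0.20 (adjusted p = 0.751 and 0.798, limma with Benjamini-Hochberg adjustment), and no call changed. The planned count tests were not run (too few low values to recover reads). The reads of miR535a, as few as 19 in a library, limit its precision.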
